A study of Mus musculus with 6 samples.

Results

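Expression of 10 genes for matricellular proteins was examined in M0505 cells, a line of mouse ovarian surface epithelium, and in STOSE cells, the transformed line derived from it. The genes are *Spp1* (osteopontin), *Thbs1* and *Thbs2* (thrombospondins), *Tnc* (tenascin-C), *Fn1* (fibronectin), *Sparc* (osteonectin), *Postn* (periostin) and the fibulin genes *Fbln1*, *Fbln2* and *Fbln5*. They were chosen by gene symbol from the 20405 genes on the array, and all 10 were present, each read by a single probe set. Both lines come from ovarian surface epithelium of FVB/N mice and were grown in the same medium, α-Minimal Essential Medium with fetal calf serum, epidermal growth factor and a growth supplement, with no further treatment. M0505 is the untransformed early passage line, and STOSE arose from it on prolonged passage without an introduced gene. Each is a single line, measured on 3 arrays that the labels call biological replicates. Nothing says that these were separate cultures, so the p-values measure the spread between these arrays, which may be technical, and a difference between transformed and untransformed cells cannot be told apart from a difference between 1 line and another.

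Matricellular proteins are secreted into the extracellular matrix, where most of them act on cells more than they build structure. They bind integrins, CD44 and other receptors, growth factors and matrix-cleaving enzymes, and they shift the balance between adhesion, migration and survival. Osteopontin, thrombospondin-1, tenascin-C and fibronectin are known from wound repair and from the stroma and ascites of ovarian tumors, and fibulins help to build elastic fibres and basement membranes.

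Values are those of the robust multi-array average (RMA) on the log2 scale, so that a difference of 1 is a 2-fold change. RNA was measured, not protein, and probe sets of different genes are not compared in level. The arrays of 1 line correlated at r = 0.997 to 0.999 across genes and those of different lines at 0.943 to 0.950, and no array stood apart. As a measure of background, 95% of the values of olfactory receptor probe sets, taken to be silent in these cells, lay under 4.74, a measure chosen after the data were seen. Of the epithelial markers of the ovarian surface, 8 of 9 lay above it in both lines, among them *Wt1*, *Upk3b* and *Msln*, and *Lhx9* did not. Their summed linear level ran from 20856 to 21610 in M0505 cells and from 11052 to 11913 in STOSE cells. Genes were called where the lines differed at least 2-fold with an adjusted p under 0.05 (limma, Benjamini-Hochberg over all genes). By this rule *Krt8*, *Krt19* and *Krt7* were lower, 33.3% of the 9 epithelial markers beside 12.5% of all genes. By the adjusted p alone, 7 of the 9 were lower and 0 higher, where 56.5% of all genes passed in either direction. These included *Wt1* (1.55-fold), *Msln* (1.52-fold) and *Upk3b* (1.27-fold).

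*Spp1*, *Thbs1* and *Tnc* rose 7- to 10-fold in STOSE cells, *Fbln2* fell about 2-fold, and the other 6 genes were not called. Over all genes 4.9% were called higher and 7.59% lower, against 3 and 1 of these 10. At the adjusted p alone, which 56.5% of all genes passed, *Fn1* and *Fbln1* were also higher and *Sparc* was lower. The median log2 fold change of the 10 genes was 0.15, beside 0.08 for all genes. Values of the lines did not overlap in 9 of the 10, *Fbln5* being the exception, beside 64.6% of all genes.

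**Figure D1:**
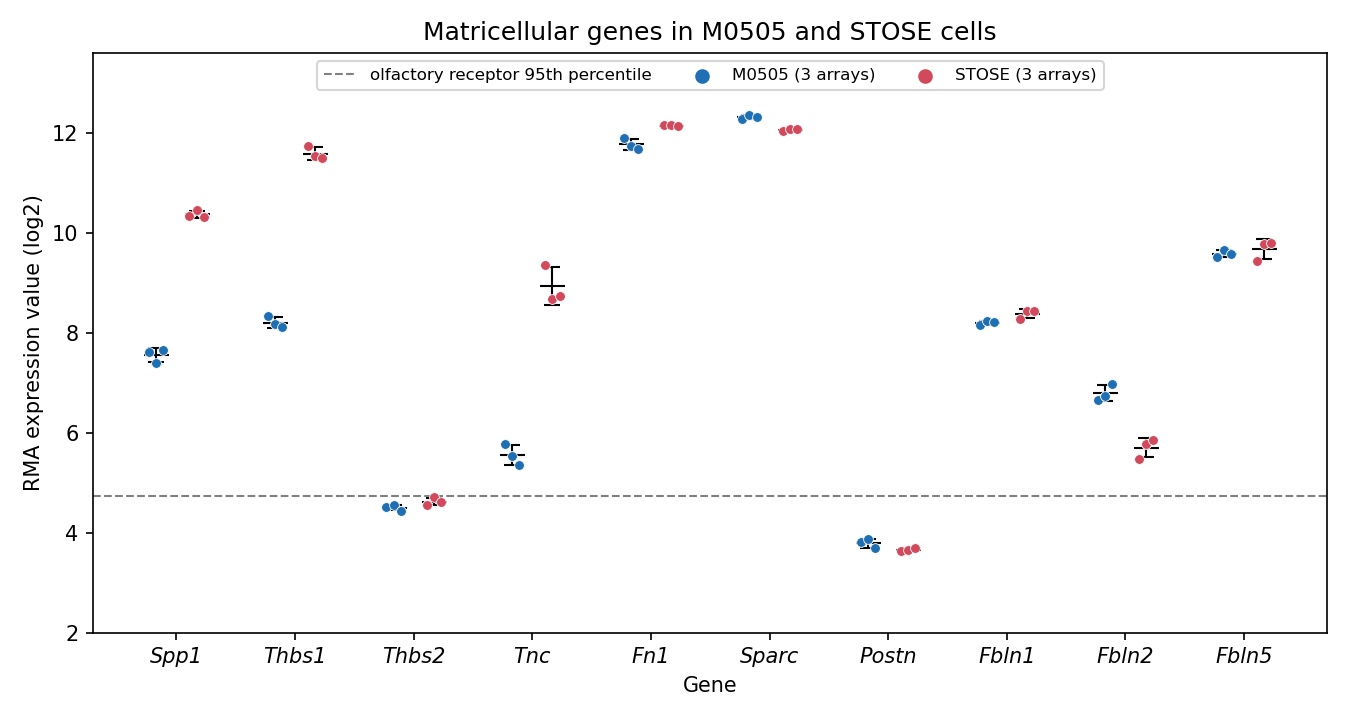
RMA expression values (log2, vertical axis) of the 10 matricellular genes (horizontal axis) on 3 M0505 and 3 STOSE arrays; bars give the mean and the SD, and the dashed line is the olfactory receptor 95th percentile of 4.74. The STOSE arrays of *Spp1*, *Thbs1* and *Tnc* lie far above the M0505 arrays, those of *Fbln2* lie below, and *Thbs2* and *Postn* lie under the line in both.

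*Spp1* encodes osteopontin, a secreted phosphoprotein that binds αv integrins and CD44. Its log2 values were 7.61, 7.39 and 7.65 on the M0505 arrays and 10.33, 10.45 and 10.33 on the STOSE arrays. All arrays of both lines were above background, and the lines were separated by far more than the spread within either. The log2 fold change was 2.82 (standard error 0.08, 95% interval 2.63 to 3.01, limma adjusted p = 4.55e-08), which is 7.07-fold, and it ranked 79 among the 1000 genes called higher. Leaving out each array in turn gave 6.70- to 7.31-fold. The paper counts *Spp1* among its differentially expressed genes. It also measured the gene by quantitative RT-PCR on samples other than those of the arrays.

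Osteopontin is also a product of macrophages, so leukocyte markers were read on the same arrays. Of 9 markers, 6 were under background in both lines, among them the defining genes *Ptprc*, *Emr1*, *Csf1r* and *Itgam*. Their summed linear level ran from 876 to 1131 in M0505 cells and from 283 to 321 in STOSE cells. Most of the M0505 sum, 81.8% to 86.4%, was *Cd68*, a gene of lysosomes and the 1 marker called, which was 7.08-fold lower in STOSE cells. Without it the sums ran from 154 to 159 and from 166 to 180. The part of leukocytes in the rise of *Spp1* was not tested.

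*Thbs1* encodes thrombospondin-1, which binds CD47 and CD36 and activates latent TGF-β. Its log2 values were 8.33, 8.18 and 8.11 in M0505 cells and 11.73, 11.54 and 11.49 in STOSE cells. The 3 STOSE arrays lay above all M0505 arrays with a wide gap. The rise was 10.4-fold (log2 fold change 3.38, standard error 0.09, 95% interval 3.18 to 3.58, limma adjusted p = 2.29e-08), rank 50 among the genes called higher, and 9.92- to 10.9-fold with each array left out.

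The paralog *Thbs2*, which encodes thrombospondin-2, was under background in both lines. Its log2 values were 4.51, 4.55 and 4.44 in M0505 cells and 4.55, 4.70 and 4.61 in STOSE cells. The log2 fold change was 0.12 (95% interval −0.03 to 0.27, limma adjusted p = 0.142), so a 2-fold change of this signal lay outside the interval. With arrays centred on the median of their genes the log2 fold change was 0.32 (adjusted p = 0.00209), and over the alternatives the adjusted p ran from 0.00209 to 0.767.

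*Tnc* encodes tenascin-C, a large hexameric glycoprotein of healing wounds and tumor stroma. Its log2 values were 5.77, 5.53 and 5.36 in M0505 cells, not far above background, and 9.37, 8.68 and 8.74 in STOSE cells. Replicate 1 was the highest in both lines, and the SD of 0.38 among STOSE arrays was wider than that of any other of the 10 genes in either line. *Tnc* rose 10.4-fold (log2 fold change 3.38, standard error 0.18, 95% interval 2.96 to 3.80, limma adjusted p = 1.34e-06), rank 52 among the genes called higher, and 8.95- to 11.3-fold with each array left out. Probes along the whole transcript are summarized into the value of a single probe set, so splice forms of *Tnc* and of *Fn1* cannot be told apart.

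Of smooth muscle markers, *Acta2* (5.04-fold) and *Tagln* (2.88-fold) were called higher in STOSE cells, *Cnn1* was called lower and *Myh11* and *Des* were not called. The summed linear level of these 5 genes ran from 863 to 1143 in M0505 cells and from 2927 to 4020 in STOSE cells. *Acta2* made up 83.5% to 87.3% of the STOSE sum, and without it the sums ran from 309 to 393 in M0505 cells and from 373 to 643 in STOSE cells, ranges that overlap. Of 8 fibroblast markers, 6 were above background in both lines, *Thy1* was called higher and *Col1a2* lower, and their summed level ran from 5838 to 6266 and from 5722 to 6054. The part of these genes in the rise of *Thbs1* and *Tnc* was not tested.

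The sequence upstream of the transcript start is shown for *Spp1* and *Tnc*, which rose together, and for *Fbln2*, which fell. It is 250 bases 5′ to 3′ from RefSeq (GRCm38.p6, a reference of another mouse strain than FVB/N), up to the base before the start, and where RefSeq gives a gene 2 starts the first window is shown. Capitals mark matches to the letters TATAAA (the motif of the TATA box) or ACCACA (that of RUNX), at any distance from the start. TGANTCA (AP-1) and GGAATG (TEAD), like these motifs sought on both strands, had no match.
Spp1 (chr5:104434861-104435110, plus strand): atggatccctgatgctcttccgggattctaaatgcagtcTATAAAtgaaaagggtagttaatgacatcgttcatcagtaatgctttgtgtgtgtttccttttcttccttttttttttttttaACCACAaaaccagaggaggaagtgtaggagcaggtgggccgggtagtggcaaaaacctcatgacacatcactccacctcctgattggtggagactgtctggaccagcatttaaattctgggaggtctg
Tnc (chr4:64047016-64047265, minus strand): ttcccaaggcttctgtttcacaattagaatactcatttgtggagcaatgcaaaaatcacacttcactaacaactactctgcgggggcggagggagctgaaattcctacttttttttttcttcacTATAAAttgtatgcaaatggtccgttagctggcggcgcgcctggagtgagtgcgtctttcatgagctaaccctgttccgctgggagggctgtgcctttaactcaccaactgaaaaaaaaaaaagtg
Fbln2 (chr6:91212514-91212763, plus strand): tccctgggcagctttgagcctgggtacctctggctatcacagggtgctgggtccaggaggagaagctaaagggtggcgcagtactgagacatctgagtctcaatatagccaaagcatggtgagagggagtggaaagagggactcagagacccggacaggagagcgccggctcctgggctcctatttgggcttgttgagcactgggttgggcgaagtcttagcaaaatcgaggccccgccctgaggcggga
In *Spp1*, TATAAA began 211 and ACCACA 128 bases before the start, and in *Tnc* TATAAA began 126 bases before it. *Fbln2* had no match, and neither did the second window of *Spp1*, which is not shown. In the second window of *Tnc*, also not shown, TATAAA began 205 bases before that start, so the distance depends on the start chosen. Among the genes not shown, TATAAA also occurred in *Thbs2* (126 bases before the start) and in the second window of *Postn* (26 bases). Both genes were under background and not called, so they have no measured direction of change. The part of these motifs in the changes was not tested. Of 32851 RefSeq windows of this length, 12.4% held TATAAA, 14.0% ACCACA, 6.75% TGANTCA and 12.6% GGAATG, so these letters are common and their presence is a description only.

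*Fn1* encodes fibronectin, the main ligand of integrin α5β1. The arrays gave log2 values of 11.89, 11.73 and 11.69 in M0505 cells and of 12.15, 12.17 and 12.13 in STOSE cells. All 3 STOSE arrays were higher, by a small margin. The difference passed the adjusted p and was under 2-fold (1.30-fold, log2 fold change 0.38, 95% interval 0.22 to 0.54, limma adjusted p = 0.00161).

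*Sparc* encodes osteonectin, a calcium- and collagen-binding glycoprotein. Values on the log2 scale were 12.29, 12.36 and 12.33 in M0505 cells and 12.03, 12.09 and 12.08 in STOSE cells. All STOSE arrays were lower, by 0.26 in the mean (95% interval −0.38 to −0.13, limma adjusted p = 0.00423), which is 1.20-fold. When each array was centred on the median of its genes, which moved the median log2 fold change of all genes by 0.20, the difference of *Sparc* was −0.057 (adjusted p = 0.376).

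*Postn* encodes periostin, an integrin ligand of fibroblasts, and was under background on all 6 arrays, at log2 values of 3.81, 3.87 and 3.68 in M0505 cells and of 3.64, 3.65 and 3.68 in STOSE cells. The log2 fold change was −0.13 (95% interval −0.28 to 0.02, limma adjusted p = 0.127). It was −0.22 (adjusted p = 0.0181) after a further quantile normalization and had the opposite sign, at 0.072 (adjusted p = 0.307), with arrays centred on the median of their genes.

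**Figure D2:**
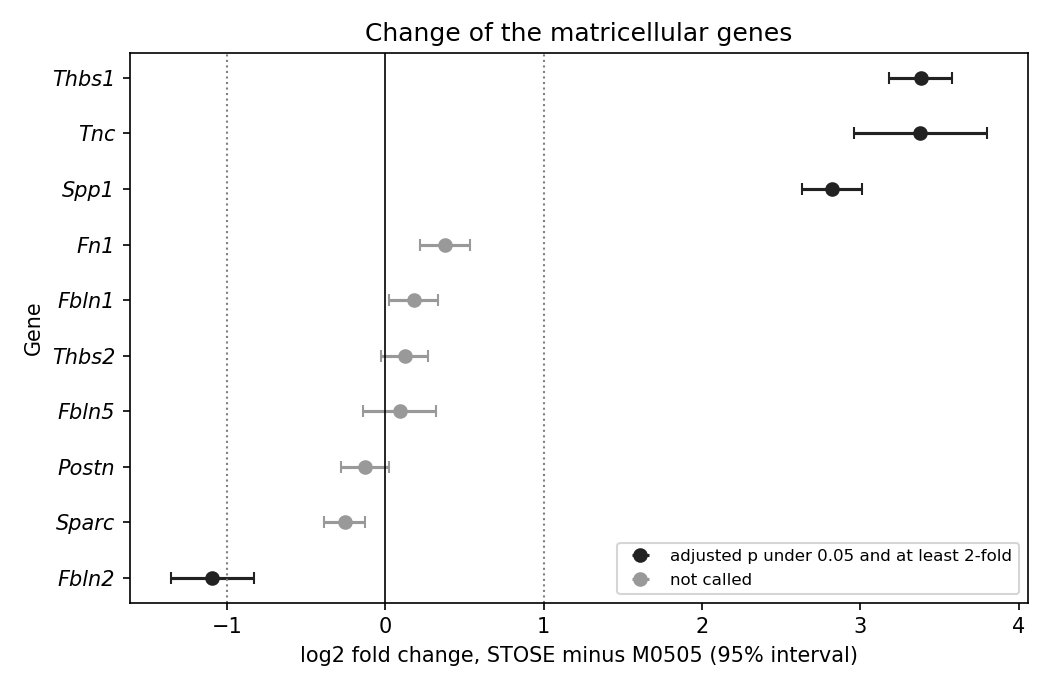
Log2 fold change of STOSE minus M0505 (horizontal axis) with its 95% interval from limma for each of the 10 genes (vertical axis); dotted lines mark 2-fold, and black points are called changed. *Thbs1*, *Tnc* and *Spp1* lie between 2.82 and 3.38, *Fbln2* lies at −1.09 with an interval that crosses the 2-fold line, and the other 6 lie between −0.26 and 0.38.

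The fibulins, whose repeats of EGF-like domains bind elastin, fibronectin and basement membrane proteins, did not move alike. *Fbln2* had log2 values of 6.66, 6.74 and 6.97 in M0505 cells and of 5.48, 5.77 and 5.84 in STOSE cells. The STOSE arrays were all lower, and replicate 1 was the lowest in both lines. The fall was 2.13-fold (log2 fold change −1.09, standard error 0.11, 95% interval −1.36 to −0.83, limma adjusted p = 6.33e-05), rank 1371 of the 1548 genes called lower. It lay close to the threshold, and at −0.98 without STOSE replicate 1, −0.94 with quantile normalization over genes only and −0.89 with centring on the median of the genes it was under 2-fold.

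*Fbln1*, which encodes a fibulin of basement membranes and elastic fibres, had log2 values of 8.16, 8.24 and 8.21 in M0505 cells and of 8.27, 8.43 and 8.44 in STOSE cells. The lines did not overlap, but the difference was small (1.13-fold, 95% interval on the log2 scale 0.03 to 0.33, limma adjusted p = 0.0487), and without 5 of the 6 arrays in turn the adjusted p was over 0.05. *Fbln5*, which encodes an RGD-bearing fibulin needed for elastic fibre assembly, had log2 values of 9.51, 9.65 and 9.58 in M0505 cells and of 9.45, 9.77 and 9.80 in STOSE cells. These overlapped, and the log2 fold change was 0.09 (95% interval −0.14 to 0.32, limma adjusted p = 0.462). With arrays centred on the median of their genes it was 0.29 (adjusted p = 0.0308), the lowest adjusted p over the alternatives, which reached 0.564.

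Within arrays, *Fbln2* fell by 1.27 on the log2 scale relative to *Fbln1* and by 1.18 relative to *Fbln5*, each with p = 0.1 in the exact permutation test, two-sided, the smallest that 3 against 3 arrays allow (adjusted p = 0.133 over 4 pairs, of which that of *Thbs1* and *Thbs2* is not given because *Thbs2* was under background). *Fbln1* against *Fbln5* changed by 0.09 (exact permutation p = 0.2, adjusted p = 0.2). Thus the 3 pairs had sizes that ran from 0.09 to 1.27, and none could reach p under 0.05 in this design.

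For the chromosomes of the 4 called genes, the median change of the genes above background was read. The median log2 fold change was −0.08 on chromosome 5, which holds *Spp1*, 0.11 on chromosome 2 (*Thbs1*), 0.23 on chromosome 4 (*Tnc*) and 0.09 on chromosome 6 (*Fbln2*), beside 0.08 for all such genes. The paper's karyotypes report loss of chromosome 5 and an addition at the end of chromosome 4 in STOSE cells. In M0505 cells they report a terminal deletion of chromosome 4. A median over a chromosome does not read the copies of a single gene, and the part of copy number in the calls was not tested.

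The genes whose profile over the 6 arrays, each minus its own mean, was closest to that of *Spp1* were *Tm4sf1*, *Emp1* and *Il1a*, with root mean square differences of 0.05, 0.08 and 0.10 on the log2 scale. *Tm4sf1* and *Emp1* rose 7.40- and 6.50-fold. *Il1a* was under background on all M0505 arrays, so its rise was at least 3.19-fold and its likeness rests on values without measured signal in that line. With 2 lines of 3 arrays this likeness is mostly that of the fold change, and it is a description.

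Receptors through which these proteins act were read from a list of 20 genes. Of these, 2 were called higher, 2 lower and 16 neither, and the median log2 fold change was −0.11. Called genes made up 20% of the list and 12.5% of all genes. At the adjusted p alone 4 were higher and 9 lower, and 6 were under background in both lines.

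*Itgb3*, the β3 chain that pairs with αv to bind osteopontin, thrombospondin-1 and tenascin-C, had log2 values of 4.84, 5.16 and 5.10 in M0505 cells and of 8.07, 8.15 and 8.06 in STOSE cells. It was close to background in M0505 cells and far above it in STOSE cells. The rise was 8.34-fold, or 3.06 on the log2 scale (95% interval 2.85 to 3.27, limma adjusted p = 5.03e-08). *Cd44*, the hyaluronan receptor that also binds osteopontin, had log2 values of 8.70, 8.37 and 8.52 against 9.91, 9.87 and 9.80, which is 2.50-fold (limma adjusted p = 4.29e-06).

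Of the other β chains that pair with αv, *Itgb5* and *Itgb8* were called lower in STOSE cells, *Itgb1* was not called and *Itgb6* was under background in both lines. *Itgb5* had log2 values of 10.81, 10.84 and 10.80 in M0505 cells and of 9.24, 9.23 and 9.24 in STOSE cells, a fall of 2.99-fold (limma adjusted p = 1.02e-07). *Itgb8*, whose product with αv activates latent TGF-β, had log2 values of 9.26, 9.41 and 9.37 against 6.29, 6.36 and 6.31, a fall of 8.15-fold (limma adjusted p = 8.67e-09). The arrays of each of these genes agreed closely within a line and did not overlap between lines.

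The αv chain itself, *Itgav*, was 1.22-fold lower (limma adjusted p = 0.00177) and the β1 chain *Itgb1* 1.13-fold lower (adjusted p = 0.0226), neither of them called. *Itga9*, whose product binds osteopontin and tenascin-C, was under background in both lines. Of the thrombospondin-1 receptors, *Cd47* was 1.51-fold lower (limma adjusted p = 2.43e-05, not called), and *Cd36* was under background in both lines, with log2 values of 2.70 to 2.89 on the M0505 arrays.

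**Figure D3:**
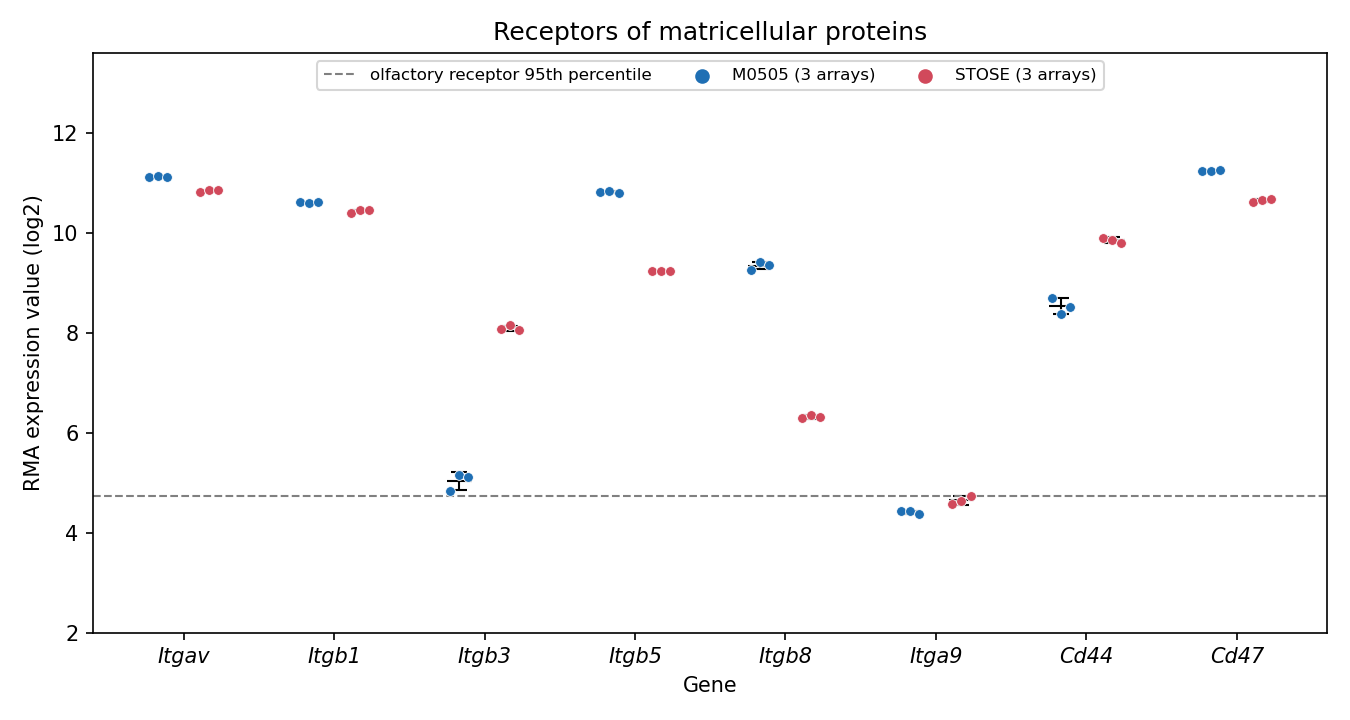
RMA expression values (log2, vertical axis) of 8 receptor genes (horizontal axis) on 3 M0505 and 3 STOSE arrays; bars give the mean and the SD, and the dashed line is the olfactory receptor 95th percentile. *Itgb3* and *Cd44* lie higher on all STOSE arrays, *Itgb5* and *Itgb8* lie lower, and *Itga9* lies near the line in both.

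Enzymes that modify or cleave matricellular proteins were read from a list of 17 genes, of which 3 were called higher, 2 lower and 12 neither (29.4% called, beside 12.5% of all genes, median log2 fold change 0.15). *Adamts1*, a metalloprotease that cleaves versican and thrombospondins, had a mean log2 value of 6.90 ± 0.13 in M0505 cells and of 10.71 ± 0.16 in STOSE cells (SD, n = 3), with no overlap of the arrays. It rose 14.0-fold (limma adjusted p = 2.29e-08). *Mmp2* (2.04-fold) and *Mmp3*, which encode matrix metalloproteinases, were also called higher, but the means of *Mmp3* lay under background in both lines. Without the dimmest 25% of genes 2 enzymes were higher. *Plau*, the urokinase gene, was under background on all STOSE arrays and at least 3.50-fold lower, and *Mmp14*, which encodes a membrane-bound metalloproteinase, 2.43-fold lower. *Fam20c*, the kinase that phosphorylates osteopontin, was 1.25-fold lower (limma adjusted p = 0.0052, not called).

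Elastic fibre genes and assembly partners of the fibulins formed a list of 16 genes, of which 1 was called higher and 5 lower (37.5% called, beside 12.5% of all genes), with a median of 0.23 on the log2 scale. *Eln*, which encodes elastin, fell from log2 values of 10.56, 10.79 and 10.54 to 5.71, 6.41 and 6.20, which is 23.0-fold (limma adjusted p = 1.67e-07). *Loxl1*, a lysyl oxidase that binds fibulin-5, fell 18.3-fold (adjusted p = 5e-07), and both stayed above background in STOSE cells. *Mfap5*, *Ltbp4* and *Ltbp3*, which encode microfibril and latent TGF-β binding proteins, fell 5.22-, 3.69- and 2.39-fold. *Ltbp1* rose 7.62-fold, with log2 values of 5.31, 5.10 and 5.14 in M0505 cells and of 8.61, 7.94 and 7.79 in STOSE cells. Set beside them, *Fbln5* was not called and lay at 1.07-fold.

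The wider matricellular class was read from 30 further genes, of which 1 was called higher, 2 lower and 27 neither (10% called, near the 12.5% of all genes, median log2 fold change 0.16), and 9 were under background in both lines. *Efemp1*, which encodes fibulin-3, fell from log2 values of 9.80, 10.47 and 10.42 to 4.62, 4.81 and 4.78, the largest change in this list. Its STOSE mean was at background level, so the fall was at least 43.7-fold, taking each STOSE array at its own value or at background, whichever was higher (limma adjusted p = 5.82e-08). *Efemp2*, which encodes fibulin-4, had a log2 fold change of 0.08 (limma adjusted p = 0.252).

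*Cyr61*, which encodes the integrin ligand CCN1, rose 3.91-fold (limma adjusted p = 3.28e-07), while *Ecm1* fell 2.98-fold. *Ibsp*, *Dmp1*, *Dspp* and *Mepe*, the relatives of *Spp1* that make bone and tooth matrix proteins and lie with it on chromosome 5, were under background in both lines, with log2 fold changes from −0.01 to 0.16.

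**Figure D4:**
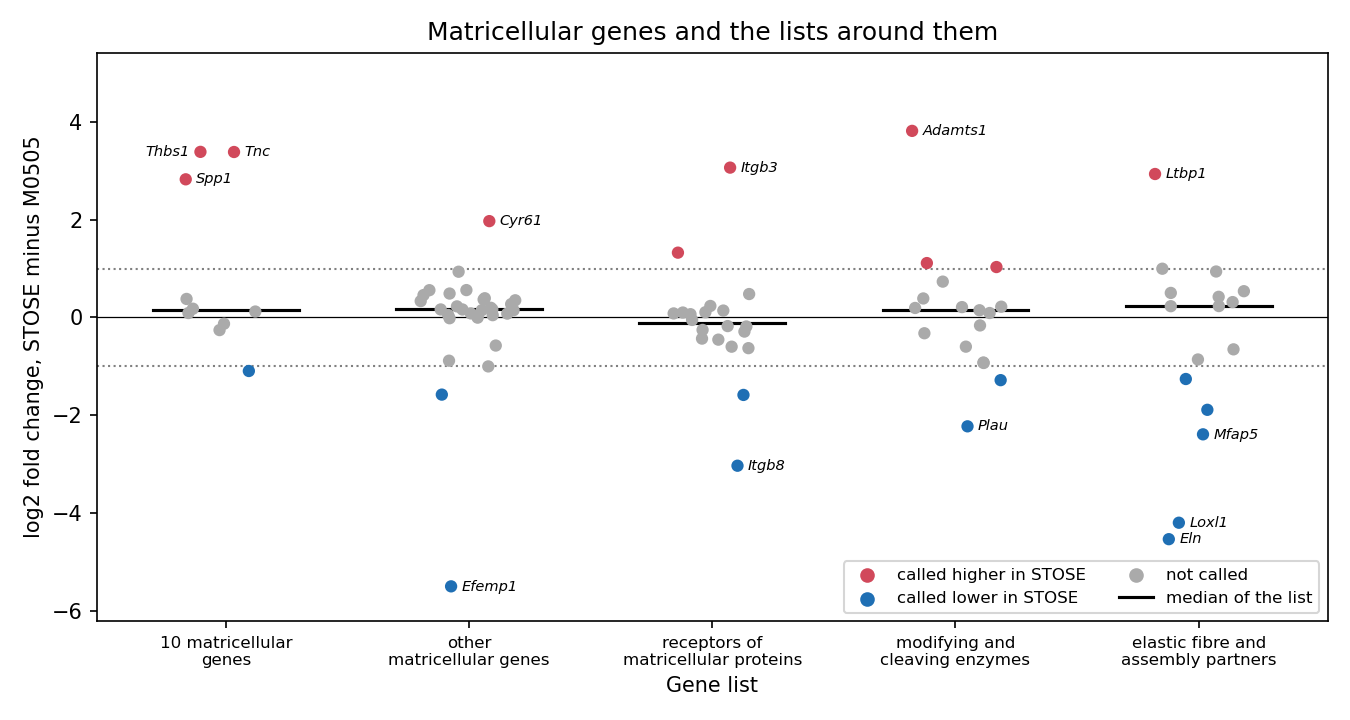
Log2 fold change of STOSE minus M0505 (vertical axis) of each gene in the 10 matricellular genes and in 4 lists of related genes (horizontal axis); red and blue points are called higher and lower in STOSE cells, grey points are not called, bars are list medians and dotted lines mark 2-fold. The medians lie between −0.11 and 0.23, while single genes reach 3.81 (*Adamts1*) and −5.49 (*Efemp1*).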

How the data were processed

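Total RNA of M0505 and STOSE cells was measured on whole-transcript mouse gene arrays from Affymetrix (Mouse Gene 1.0 ST). The authors deposited 1 table of log2 values, normalized by robust multi-array average (RMA) with Affymetrix Expression Console per the submitters' processing notes. Versions, annotation release and genome build are not given in the sources used here. The deposited table also holds the authors' mean log2 value of each line, their ratio of the means (2 to the difference) and the same ratio as a signed linear fold change in another column. These columns were not used. The 6 columns of single arrays carry the sample names, and 0 columns could not be assigned.

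Of 28944 probe sets, 23530 had a gene symbol, and the brightest over the 6 arrays was kept for each of 20405 genes. STOSE and M0505 arrays were compared in R 4.3.3 with limma 3.58.1 (lmFit, eBayes), without covariates, with Benjamini-Hochberg adjustment over all genes. A call needed an adjusted p under 0.05 and at least 2-fold. In simulated data with normal noise and 200 of 20405 genes changed at least 4-fold, 100% were recovered with 0 false calls. Changes that large are easily found, so this says nothing of calls near 2-fold. An array has no read depth, and the number of arrays limits the precision. Pairs of related genes were compared by exact permutation.

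The genes and lists were chosen with earlier results of these data known. Named singly were the 10 genes, 6 usual receptors of osteopontin, up to 4 called genes of each list in each direction and the 3 profiles closest to *Spp1*. *Cd36*, *Cd47*, *Efemp2*, *Fam20c*, *Ltbp3*, the bone matrix genes, the marker genes and those near 2-fold were named after their values were seen. Chromosomes are those of RefSeq for GRCm38.p6, matched by symbol or an unambiguous synonym for 97.5% of genes, and promoter windows were matched by symbol for 8 of the 10 genes, all but *Thbs1* and *Fn1*. Endothelial and granulosa markers were also read. Their calls were *Kdr* and *Inha*, lower in STOSE cells, and 1 of 5 and 2 of 5 of these markers were under background in both lines. Alternatives varied the normalization, the filter on dim genes, the use of several probe sets, the test, the threshold, the replicate block and the arrays left out.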

Additional observations from a re-analysis of the deposited data

How the results depend on the processing

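*Spp1*, *Thbs1* and *Tnc* were called higher under all 10 alternatives that gave their fold change and with each array left out. Of these alternatives, the replicate block, the filters on dim genes, the mean of probe sets and the other tests cannot move these fold changes, only their p. Only the further normalizations and centrings could move them. Across the 10 alternatives their log2 fold changes ran from 2.82 to 3.02, 3.36 to 3.58 and 3.38 to 3.58, and their highest adjusted p was 0.000299, 0.000272 and 0.00139. *Fbln2* was lower throughout and lost its call at −0.94 and −0.89 under 2 alternatives chosen after the data were seen, quantile normalization over genes only and centring on the median of the genes, and the latter moved *Postn* to 0.072 and brought *Thbs2* (0.32) and *Fbln5* (0.29) past the adjusted p, still under 2-fold. The number of the 10 genes called lower was then 0 under both, as it was at 4-fold and without the dimmest 50% of genes, which leaves out *Fbln2*. It was 2 with no fold threshold, where 5 were higher. With arrays left out, it ran from 0 to 1, with 0 without STOSE replicate 1.

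Over all genes, 6454 were higher and 5066 lower with no fold threshold, and 186 and 509 at 4-fold. Centring on the median of the genes turned the split of 1000 higher and 1548 lower into 1466 and 1177. With no fold threshold 12 other matricellular genes were higher and 5 lower, of receptors 4 and 9, of enzymes 7 and 6, and of elastic fibre genes 9 and 7. At 4-fold there were 0 and 1, 1 and 1, 1 and 1, and 1 and 3. Without the dimmest 50% of genes 1 enzyme was lower. *Lox*, *Ltbp2* and *Thbs3* lay close to 2-fold. Elastic fibre genes called higher numbered 2 after a further quantile normalization or centring on array medians and 3 under both alternatives over genes only, where 2 other matricellular genes were higher. With arrays left out, 1 to 2 elastic fibre genes and 1 to 2 other matricellular genes were higher, the latter with 2 without STOSE replicate 3. The former was 2 without M0505 replicate 2 or 3 and without any 1 STOSE array.

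The same replicate numbers in both lines name no shared culture, so they were not taken as pairs in the main fit. Deviations of same-numbered arrays correlated at 0.26, 0.04 and 0.25, all positive. Whether same-numbered arrays were handled together was not tested. The replicate block cannot move a fold change, because each replicate number occurs in both lines. With it, 3 of the 10 genes were higher and 1 lower, as without it. For *Spp1* the standard error went from 0.08 to 0.09 and the limma adjusted p from 4.55e-08 to 2.87e-06. For the other called genes the standard error was smaller with the block. It went from 0.09 to 0.05 for *Thbs1*, from 0.18 to 0.09 for *Tnc* and from 0.11 to 0.06 for *Fbln2*. Signal at background limits what can be said of *Thbs2* and *Postn*.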
